A study of Mus musculus with 2 samples.

Results

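The 8 genes described here take arginine apart, carry or remake it, or act next to it in activated myeloid cells: Arg1, Arg2, Nos2, Ass1, Slc7a2, Gatm, Ckb and Acod1. They were chosen by symbol, and all 8 were found among the 31054 features of each library. The RNA came from single cells of pooled mouse tumours sorted for mCherry, a red fluorescent protein. One library held tumours of mice of 4 weeks (young, 7558 barcodes) and the other those of mice of 24 weeks (adult, 6279 barcodes). Both are labelled d7. The labels name neither the tumour, the strain, the cells that carry the mCherry gene nor the number of mice. The study's title sets the libraries in the question of how young tumour-bearing hosts present antigen to CD8 T cells.

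Each age is 1 library of pooled tumours, so a difference by age cannot be told apart from one by pool, sort or library, and no test was run. All intervals are 95% intervals that cover counting error only. Levels are unique molecular identifiers (UMIs, one per captured RNA) per 1000000 UMIs of the class (CPM). After cells with under 200 genes or over 10% mitochondrial UMIs were left out, 7090 young and 5774 adult cells remained, with medians of 9841.5 and 9660 UMIs. Of all barcode sequences, 111 were present in both libraries.

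Arginase cuts arginine into ornithine and urea, and nitric oxide synthase turns the same arginine into nitric oxide and citrulline. Macrophages are known to raise Nos2 after interferon gamma or microbial products and Arg1 after interleukin 4, and in cultured cells the pair is often used to mark opposite states. Acod1 makes itaconate from an intermediate of the citric acid cycle, also after inflammatory stimuli. Gatm takes the amidino group of arginine for the first step of creatine synthesis, and Ckb moves phosphate between creatine and ATP.

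In mm10 coordinates from GENCODE M21, Arg1 (ENSMUSG00000019987) spans chr10:24915221-24927484 on the minus strand. Arg2 (ENSMUSG00000021125) spans chr12:79130777-79156301 on the plus strand, and Nos2 (ENSMUSG00000020826) chr11:78920787-78960254 on the plus strand. Acod1 (ENSMUSG00000022126) spans chr14:103046977-103056573 and Ass1 (ENSMUSG00000076441) chr2:31470207-31520672, both on the plus strand. Slc7a2 (ENSMUSG00000031596) spans chr8:40862396-40922308 on the plus strand. Gatm (ENSMUSG00000027199) spans chr2:122594467-122611303 and Ckb (ENSMUSG00000001270) chr12:111669361-111672338, both on the minus strand. All are protein-coding. Arg2 overlaps Vti1b and Gm48780 and Slc7a2 overlaps Gm26584, each on the opposite strand, and the strand setting of the counting is not given in the sources used here, so the counts of these 2 members are uncertain to that extent.

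Promoters are shown for 3 members whose levels stood apart below: Gatm and Ckb, which differed most between the libraries and in opposite directions, and Acod1, which was highest in neutrophils. RefSeq promoters on GRCm38.p6 were matched for 4 of the 8 members (these 3 and Ass1). Each sequence reads 5′ to 3′ on the gene's strand from 250 bases before the RefSeq start towards it and stops before the first base of the GENCODE gene model. It covers chr2:122611304-122611527 (minus strand), chr12:111672339-111672588 (minus strand) and chr14:103046762-103046976 (plus strand). Capitals mark CCAAT and TATAAA, searched on both strands.
Gatm: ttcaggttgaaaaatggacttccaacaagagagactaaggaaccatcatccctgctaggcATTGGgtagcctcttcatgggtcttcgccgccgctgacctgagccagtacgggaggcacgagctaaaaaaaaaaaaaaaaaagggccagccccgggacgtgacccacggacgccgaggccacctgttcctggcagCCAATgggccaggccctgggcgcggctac
Ckb: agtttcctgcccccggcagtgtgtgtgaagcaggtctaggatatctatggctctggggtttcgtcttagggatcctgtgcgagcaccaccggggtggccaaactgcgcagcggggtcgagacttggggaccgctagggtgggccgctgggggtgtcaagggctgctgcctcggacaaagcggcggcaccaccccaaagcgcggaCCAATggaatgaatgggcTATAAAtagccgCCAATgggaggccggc
Acod1: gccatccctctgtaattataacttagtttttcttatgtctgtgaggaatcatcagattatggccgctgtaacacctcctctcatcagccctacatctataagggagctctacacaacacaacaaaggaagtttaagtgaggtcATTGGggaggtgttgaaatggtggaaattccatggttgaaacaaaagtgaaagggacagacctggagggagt

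In the 250 bases before its RefSeq start, Gatm held CCAAT with first bases 190 (minus strand) and 55 bases before the start, and no TATAAA. Ckb held TATAAA 28 bases before the start, between CCAAT at 46 and 16. Acod1 held CCAAT on the minus strand 107 bases before the start, and TATAAA at 28, which lies past the printed stretch. Ass1, whose window was 75.6% G and C, held neither. TATAAA occurred in 12.4% and CCAAT in 33.9% of the 32851 RefSeq windows of this length. The motifs TTCNNNGAA (7.02% of windows), TTGCNNAA (9.56%), TGANTCA (6.75%) and that of NF-kB (3.899%) had no match in the 4 windows. No searched match overlapped another in the printed sequences. These matches are descriptions of the letters and not binding sites.

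Cells were put in classes by gates. A cell with 10 or more UMIs of the mCherry construct was called mCherry-rich, and one with at least 1% of its UMIs from S100a8 and S100a9 a neutrophil. Of the others, those with a UMI of Csf1r, the receptor for macrophage colony-stimulating factor, formed the Csf1r class, and those with 2 or more UMIs of T and NK cell genes the lymphocytes. The Csf1r class held 5520 young and 4358 adult cells (medians of 10349 and 10122 UMIs). All 10 listed macrophage markers were present in it, with summed levels of 15273 CPM in the young and 12816 CPM in the adult class. There were 423 and 476 mCherry-rich cells, 122 and 195 neutrophils, and 53 and 126 lymphocytes. A remainder of 972 young and 619 adult cells passed no gate and still held macrophage markers at 9766 and 6979 summed CPM.

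Arg1 and Nos2 were found in the same Csf1r cells. Counted over whole cells, 97.4% of young and 96.4% of adult Csf1r cells held an Arg1 UMI, 73.8% and 52.7% held a Nos2 UMI, and 72.8% and 51.9% held both. Lymphocytes, at medians of 4486 and 4123.5 UMIs, held Arg1 in 67.9% and 56.3% of cells. They held Nos2 in 15.1% and 6.35% and both in 11.3% and 5.56%. The part of free RNA in the shares of Csf1r cells was not tested. Since deeper cells hold more genes, Csf1r cells were then thinned to 3000 UMIs each, which left out 226 young and 134 adult cells below that depth. In the 5294 young cells that remained, Arg1 was present in 94.2%, Nos2 in 49.5% and both in 47.5% (46.1% to 48.8%), where the product of the single shares is 46.6%. In the 4224 adult cells, Arg1 was present in 91.5%, Nos2 in 31.8% and both in 30.7% (29.3% to 32.1%), against a product of 29.1%. Observed over product was therefore 1.02 in young, with an interval of 0.990 to 1.05 that includes 1, and 1.05 (1.01 to 1.10) in adult. Because Arg1 was present in nearly all cells, this measure could only lie between 0.937 and 1.06 in young and between 0.802 and 1.09 in adult, so it says little about exclusion.

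Nos2 was less frequent in the few Csf1r cells without Arg1 than in those with it. In young, 50.4% (49.0% to 51.8%) of Arg1-positive thinned cells held Nos2, against 34.1% (28.8% to 39.7%) of Arg1-negative ones, an odds ratio of 1.97. In adult, the shares were 33.5% (32.0% to 35.0%) and 12.9% (9.59% to 16.8%), an odds ratio of 3.41. Without thinning the young odds ratio was 4.13 and the adult one 3.75. Before thinning, Csf1r cells with neither gene held more dendritic cell markers than those with Arg1 alone. Mature dendritic markers summed to 473 against 127 CPM (young) and 566 against 117 CPM (adult). Conventional ones summed to 26.1 against 6.25 CPM and 23.0 against 4.57 CPM. Lymphocyte markers were lower in young (1.86 against 43.8 CPM) and higher in adult (146 against 30.5 CPM). The part of other cell types in the odds ratios was not tested. The interval of observed over product, above, is that of the observed share alone. Cells with Nos2 and no Arg1 made up 1.98% of young cells (105 cells) and 1.09% of adult cells (46 cells).

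**Figure D1:**
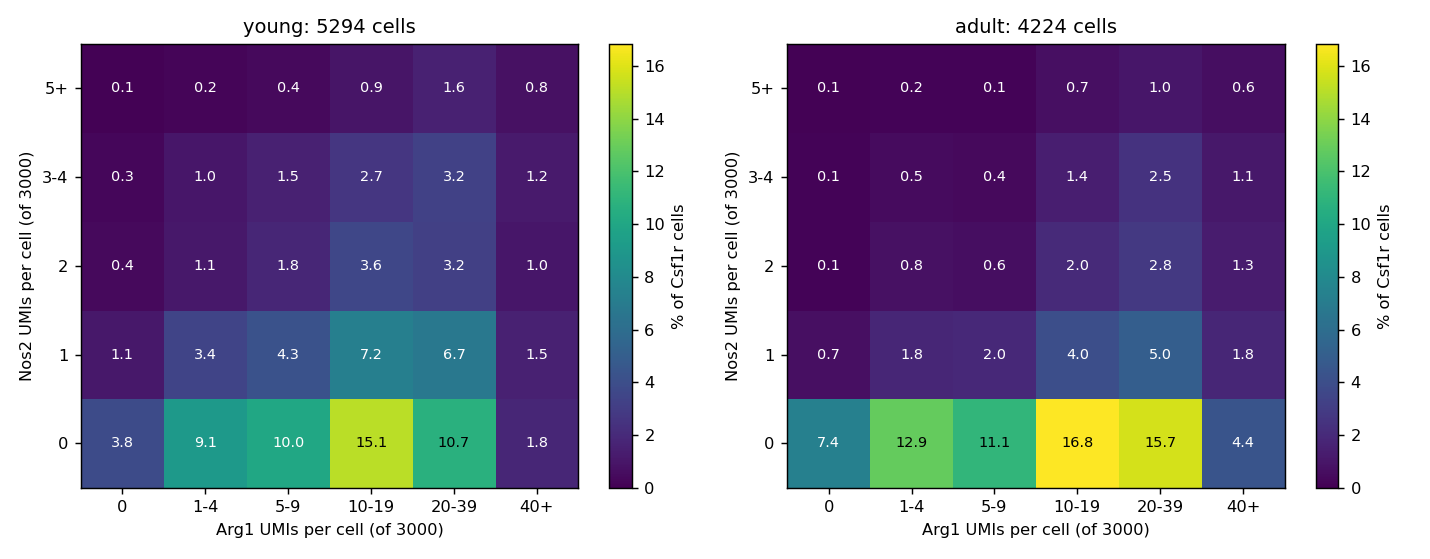
Share of Csf1r cells (percent of all cells in the panel, number and colour) by Arg1 UMIs (x axis) and Nos2 UMIs (y axis) after thinning to 3000 UMIs per cell, young left and adult right. Cells with 5 or more Nos2 UMIs lie mostly in the columns of 10 or more Arg1 UMIs. The corner with Nos2 and no Arg1 holds few cells. So does the whole column without Arg1 (5.82% of young and 8.45% of adult cells).

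Thinned cells were ordered by Arg1 and put in 5 groups of nearly equal size. From the lowest to the highest group, the share of cells with Nos2 went from 37.5% to 63.9% in young and from 17.0% to 47.8% in adult. The mean Nos2 count per thinned cell went from 0.681 (0.633 to 0.732) to 1.60 (1.52 to 1.68) in young and from 0.325 (0.289 to 0.364) to 1.19 (1.11 to 1.26) in adult, and each group was higher than the one before. Seen from Nos2, the 211 young cells with 5 or more thinned Nos2 UMIs had a median of 22 Arg1 UMIs, against 11 in the young cells with none. The 117 adult cells at that level had a median of 23, against 11. Of those high-Nos2 cells, 6 young and 4 adult cells had no Arg1 UMI. Over cells, Pearson's r of the thinned log counts was 0.20 in young and 0.25 in adult, as a description of cells that share a library.

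**Figure D2:**
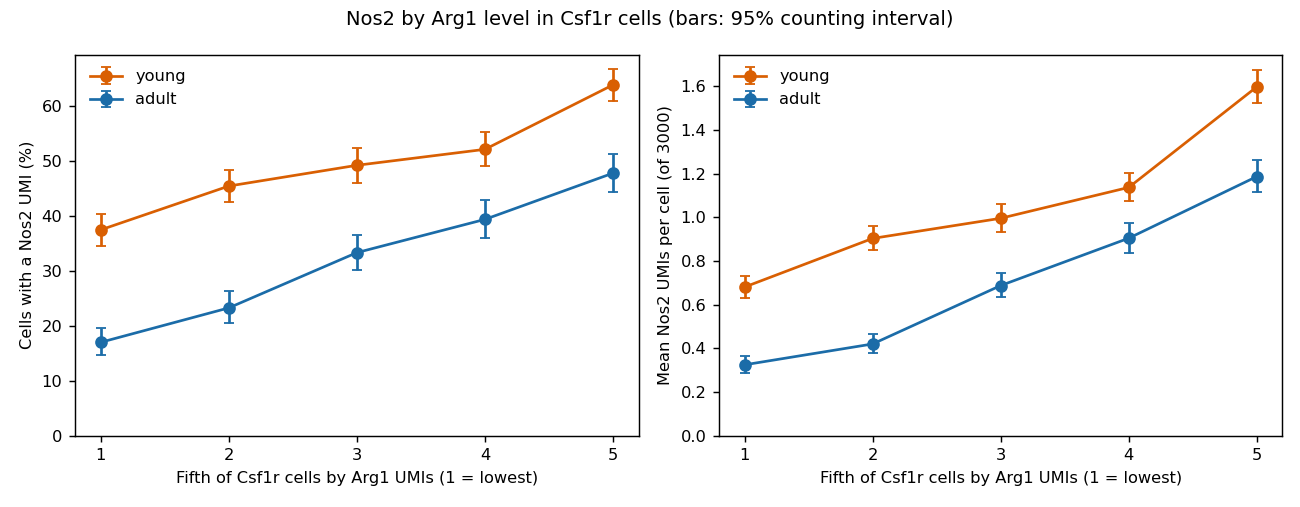
Percent of Csf1r cells with a Nos2 UMI (left) and mean Nos2 UMIs per cell (right) in 5 groups of cells ordered by Arg1 (x axis, 1 the lowest), thinned to 3000 UMIs, with 95% counting intervals. Both climb from group to group in both libraries, and young lies above adult throughout.

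The other members were spread unevenly along the Arg1 order, and not alike in the libraries. Slc7a2, a carrier of arginine and other cationic amino acids, went from a mean of 0.120 to 0.603 UMIs per thinned cell from the lowest to the highest adult group, each above the last. In young it was 0.141 in the lowest, 0.221 in group 4 and 0.179 in the highest group. Ass1, which joins citrulline to aspartate on the way back to arginine, went from 2.43 to 2.97 in adult but from 2.59 to 2.01 in young. Ckb was lower in the highest than in the lowest group in both (0.519 to 0.305 in young, 0.320 to 0.149 in adult).

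Among Arg1-positive thinned cells, those with Nos2 also held more Arg2, the mitochondrial arginase, and more Slc7a2 than those without Nos2. A gene is counted as higher or lower where the ratio is past 1.5-fold and its interval excludes 1. Only genes that reached 10 CPM in 1 of the 2 groups were counted. Of the 6 members that do not set the groups, 2 were higher and none lower in young, where 0.953% of 6504 genes were higher and 1.15% lower. In adult 2 were higher and 1 lower, against 2.65% and 3.87% of 6441 genes. Arg2 stood at 36.9 against 20.2 CPM in young (1.82-fold, 1.49 to 2.24) and at 22.9 against 14.1 CPM in adult (1.62-fold, 1.21 to 2.16). Slc7a2 stood at 70.9 against 46.9 CPM in young (1.51-fold, 1.32 to 1.74) and at 201 against 88.6 CPM in adult (2.27-fold, 2.04 to 2.51). Ckb was the member lower in adult, at 46.8 against 89.7 CPM, a ratio of 0.522 (0.441 to 0.615).

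The rare cells with Nos2 and no Arg1 held more Acod1 and Ass1 and less Gatm and Ckb than cells with Arg1 and no Nos2. Counted without thinning, these were 60 against 1360 young cells and 37 against 1941 adult cells. Of the 6 other members, 4 were higher and 2 lower in young, where 6.67% of 6721 genes were higher and 9.70% lower. In adult 2 were higher and 2 lower, against 4.98% and 7.41% of 6603 genes. The 6 members had a median log2 ratio of 0.87 in young and 0.14 in adult, where the medians of all tested genes were -0.12 and -0.15. In part the pattern was also seen in cells with neither gene. The 84 young ones held Acod1 at 516, Ass1 at 899, Gatm at 106 and Ckb at 102 CPM. Young cells with Arg1 and no Nos2 held them at 235, 590, 220 and 208 CPM. The 119 adult cells with neither gene held Acod1 at 287, Ass1 at 588, Gatm at 197 and Ckb at 121 CPM. Adult cells with Arg1 and no Nos2 held them at 208, 657, 420 and 114 CPM.

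Acod1 stood at 778 CPM in the young Nos2-only cells and 235 CPM in the Arg1-only cells (3.31-fold, 2.95 to 3.71). In adult it stood at 549.5 and 208 CPM (2.64-fold, 2.24 to 3.08). Ass1 was 2.10-fold (1.92 to 2.29) higher in young and 1.79-fold (1.61 to 1.99) in adult. Gatm was at 0.320 of its Arg1-only level in young (0.215 to 0.457), or 0.665 in thinned cells, and at 0.380 in adult (0.280 to 0.505). Ckb was at 0.417 (0.293 to 0.576) in young and at 0.468 (0.267 to 0.761) in adult, and the adult value, on 16 UMIs, was no longer past the limit in thinned cells (0.565, 0.226 to 1.17). Arg2 had ratios of 1.90 (1.09 to 3.09) and 1.88 (0.681 to 4.15), on 17 and 6 UMIs, and 3.30 in young thinned cells. Slc7a2 was 1.76-fold (1.13 to 2.64) higher in young, but not where each cell weighed the same (1.43) or in thinned cells (0.947). In adult its ratio was 0.678 (0.370 to 1.14), 1.06 where each cell weighed the same, and 0.246 (0.0505 to 0.720) on 3 UMIs in thinned cells.

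Nos2-only cells were shallower than Arg1-only cells, with medians of 7244.5 against 9153.5 UMIs in young and 7094 against 10158 in adult. They also held less of the summed macrophage markers, 9735 against 16077 CPM in young and 10470 against 13968 CPM in adult, and the part of either in these differences was not tested. In young, 34 of the 105 thinned Nos2-only cells, and in adult 19 of 46, lay in the 10% of cells highest in the monocyte genes Ly6c2, Plac8 and Ms4a4c. So did 79 of the 203 young and 73 of the 311 adult thinned cells with neither gene. Of thinned Arg1-only cells, 183 of 2472 young and 230 of 2571 adult ones did. Of the 10 ranges described below, this one held the most Nos2-only cells in each library. The range of Slpi and Il1a held 27 young and 9 adult ones.

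Genes next to the members also differed between Nos2-only and Arg1-only cells. Of all genes tested there, 6.67% were higher and 9.70% lower in young, and 4.98% and 7.41% in adult. Of the listed inducers and companions of nitric oxide and type 1 activation, 6 of 15 measured were higher and none lower in young Nos2-only cells. In adult 8 of 14 were higher and 1, the interferon gamma receptor chain Ifngr1, was lower. Il1b, a fever-inducing cytokine, stood at 6231.5 against 2603 CPM in young (2.39-fold, 2.30 to 2.49) and 4849 against 2707 CPM in adult (1.79-fold, 1.70 to 1.89). Of the type 2 list, 2 of 11 were higher and 3 lower in young, and 1 of 14 higher and 6 lower in adult. The mannose receptor gene Mrc1 was lower in both, with 0 UMIs in the 60 young cells and 3.33 CPM (1 UMI) in the 37 adult cells, against 12.04 and 42.8 CPM in Arg1-only cells.

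Gch1, which starts the synthesis of the nitric oxide synthase cofactor tetrahydrobiopterin, was 1.88-fold (1.48 to 2.36) higher in young and 1.64-fold (1.25 to 2.12) in adult Nos2-only cells. In the polyamine list, downstream of ornithine, 1 of 12 genes was higher and 4 lower in young, and 2 of 12 higher and 1 lower in adult. The shares of all genes were 6.67% and 9.70% in young and 4.98% and 7.41% in adult. Smox, which oxidises spermine, was 2.58-fold (2.20 to 3.004) and 1.99-fold (1.62 to 2.43) higher. Srm, spermidine synthase, was at 0.422 (0.136 to 0.993) and 0.244 (0.0502 to 0.715) of its Arg1-only level.

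Between the libraries, Csf1r cells held nearly the same Arg1 but different amounts of the genes around it. Arg2, Nos2 and Ckb were higher in young, and Slc7a2 and Gatm were higher in adult, 3 and 2 of 8 members. Of the 6490 genes tested, 3.42% were higher and 2.50% lower in young. The members' median log2 ratio was 0.14, and that of all tested genes 0.05. No member was past 2-fold.

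Arg1 stood at 5279.7 CPM in the young and 5723 CPM in the adult class, a ratio of 0.922 (0.918 to 0.927). Nos2 stood at 334 CPM in the young and 209 CPM in the adult class, a ratio of 1.60 (1.56 to 1.64). Where each cell weighed the same, the Nos2 ratio was 1.44, below the limit, and in thinned cells it was 1.52. Single cells reached 368 Arg1 UMIs in young and 540 in adult around the same median of 45, and 38 and 34 Nos2 UMIs around medians of 2 and 1. In the cells that passed no gate, Arg1 had a ratio of 0.994 (0.973 to 1.01), Nos2 was 1.75-fold and Ckb 2.15-fold higher in young, and Slc7a2 was 2.15-fold and Gatm 2.71-fold higher in adult.

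Arg2 stood at 26.0 CPM in the young and 15.3 CPM in the adult class (1.70-fold, 1.56 to 1.86), and was detected in 19.1% and 11.7% of cells. Slc7a2 stood at 62.1 CPM in the young and 112 CPM in the adult class, 1.80-fold (1.73 to 1.88) higher in adult. Ass1 at 766 and 840 CPM (ratio 0.911, 0.899 to 0.923) and Acod1 at 325 and 249 CPM (1.31, 1.28 to 1.34) were not past the limit.

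The creatine pair parted. Gatm stood at 198 CPM in the young and 393 CPM in the adult class, 1.99-fold (1.94 to 2.03) higher in adult. Ckb stood at 182 CPM in the young and 92.6 CPM in the adult class, 1.96-fold (1.90 to 2.03) higher in young. All 4 measured genes of the creatine list were past the limit, 2 in each direction, and Gatm and Ckb among them are members themselves. Of the 6490 tested genes, 3.42% were higher and 2.50% lower in young. Gamt, which methylates the product of Gatm into creatine, went with Gatm at 7.80 against 11.9 CPM (1.52-fold higher in adult). The creatine importer Slc6a8 went with Ckb at 16.4 against 10.1 CPM (1.63-fold higher in young).

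**Figure D3:**
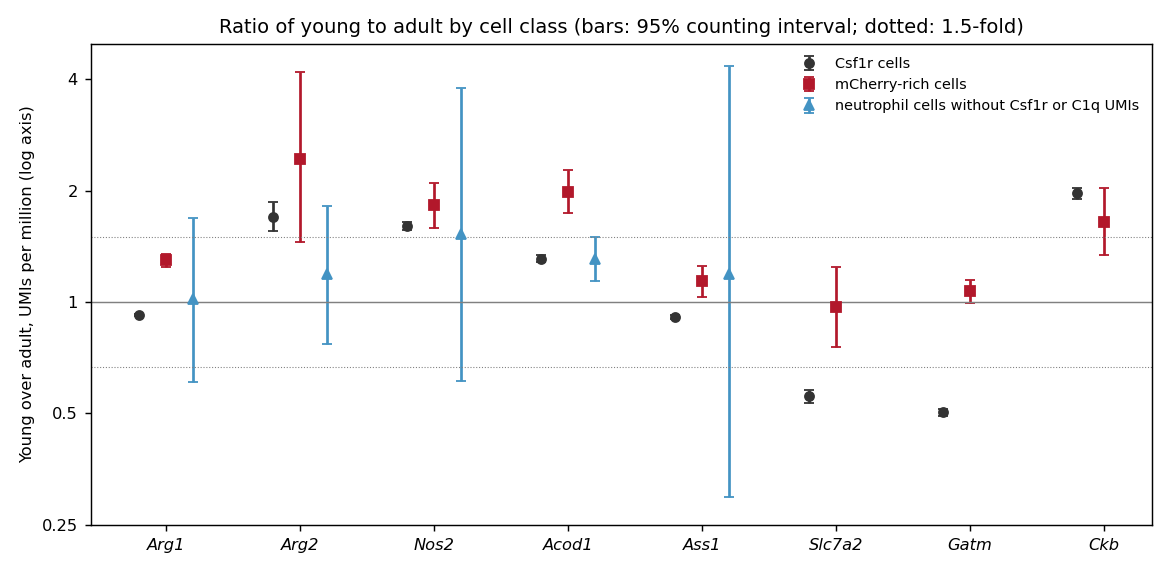
Ratio of young to adult CPM (log axis) for each gene in Csf1r cells (circles), mCherry-rich cells (squares) and neutrophils without a Csf1r or C1q UMI (triangles), with 95% counting intervals; ratios resting on fewer than 10 UMIs or on a count of 0 are not drawn. In Csf1r cells Arg2, Nos2 and Ckb lie above the dotted 1.5-fold line and Slc7a2 and Gatm below it, with Arg1 near 1.

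For the other lists, the shares over all 6490 tested genes were 3.42% higher and 2.50% lower in young. The members Arg2, Slc7a2 and Nos2 are counted again here. In the arginine list 1 of 7 measured genes was higher in young (Arg2) and 1 lower (Slc7a2). In the citrulline and nitric oxide list 1 of 9 was higher (Nos2) and 1 lower, Ddah2, which breaks down methylated arginines, at 6.32 against 10.2 CPM. Of 11 polyamine genes, Srm was lower at 20.2 against 32.7 CPM. Of 18 genes around itaconate and citrate, the isocitrate dehydrogenase genes Idh2 (19.5 against 32.3 CPM) and Idh3a (19.8 against 30.0 CPM) were lower. None of 14 type 1 inducers was past the limit in either direction, whereas 6 of 13 type 2 genes were lower in young. Among those, the chemokine gene Ccl24 stood at 34.7 against 1056 CPM, the lectin gene Mgl2 at 2.66 against 55.2 CPM, the chemokine gene Ccl17 at 9.50 against 73.8 CPM and Mrc1 at 10.4 against 41.6 CPM.

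Among the 4 gated classes, Acod1 and Arg2 were highest in neutrophils, and the other 6 members in the Csf1r class, in each library. The order is unsure for young Slc7a2, at 62.1 CPM in the Csf1r class and 52.1 CPM (30.4 to 83.5) in neutrophils. Of its 17 UMIs in young neutrophils, 12 lay in 1 cell. The young cells that passed no gate held Nos2 at 339 CPM, close to the Csf1r class. The lymphocytes serve as a rough measure of free RNA, since little of the myeloid members is expected in them. The macrophage markers summed to 623 CPM in young and 1346 CPM in adult lymphocytes. In those without Csf1r or C1q UMIs they summed to 325 and 248 CPM. The part of mixed cells or of the lymphocytes' own RNA in this measure was not tested.

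Acod1 stood at 3480.1 CPM (3281 to 3689) in young neutrophils and 2932 CPM (2776 to 3095) in adult ones, 10.7 and 11.8 times its Csf1r level. It was detected in 92.6% and 86.7% of these cells at medians of 2163 and 1907 UMIs, against 15.1% and 9.52% of lymphocytes at 4486 and 4123.5 UMIs. Arg2 stood at 353 CPM (291 to 423) and 310 CPM (261 to 366), 13.6 and 20.3 times its Csf1r level, and at 1 and 0 UMIs in the lymphocytes. In the neutrophils with no UMI of Csf1r or the C1q genes (52 young and 94 adult cells), Acod1 stood at 3804 and 2914.5 CPM and Arg2 at 391 and 329 CPM. Of the 10 listed macrophage markers, 5 had UMIs in those cells and summed to 2513 and 1263 CPM. Csf1r and the C1q genes were absent by choice, and Mertk had no UMI. In all neutrophils Lyz2 alone stood at 2177 and 1824 CPM, where the listed markers summed to 3744 and 3046 CPM. How much of these sums is macrophage RNA, and its part in the Acod1 and Arg2 levels, was not tested.

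Arg1 and Nos2 were lower in those neutrophils than in all neutrophils. The young neutrophils held Arg1 at 2539 CPM and the adult ones at 1068 CPM, but 1 young cell held 512 of the 828 UMIs. Without cells holding Csf1r or C1q UMIs it was 264 CPM (174 to 384) and 259 CPM (188 to 347), 5.001% and 4.52% of the Csf1r level. In lymphocytes chosen in the same way (18 young and 54 adult cells) it stood at 152 and 151 CPM. Nos2 stood at 184 and 154 CPM in neutrophils, and at 108 CPM (53.7 to 192, 11 UMIs) and 70.5 CPM (36.4 to 123, 12 UMIs) without those cells. Both Nos2 intervals overlap those of all neutrophils, which include these cells (140 to 237 in young, 120 to 195 in adult). The lymphocytes chosen in the same way held 0 Nos2 UMIs in young and 12.6 CPM (3 UMIs) in adult. With the neutrophil gate at 2% of UMIs, Arg1 was at 0.176 of its Csf1r level in young and 0.0948 in adult, against 0.481 and 0.187 at the gate of 1%.

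**Figure D4:**
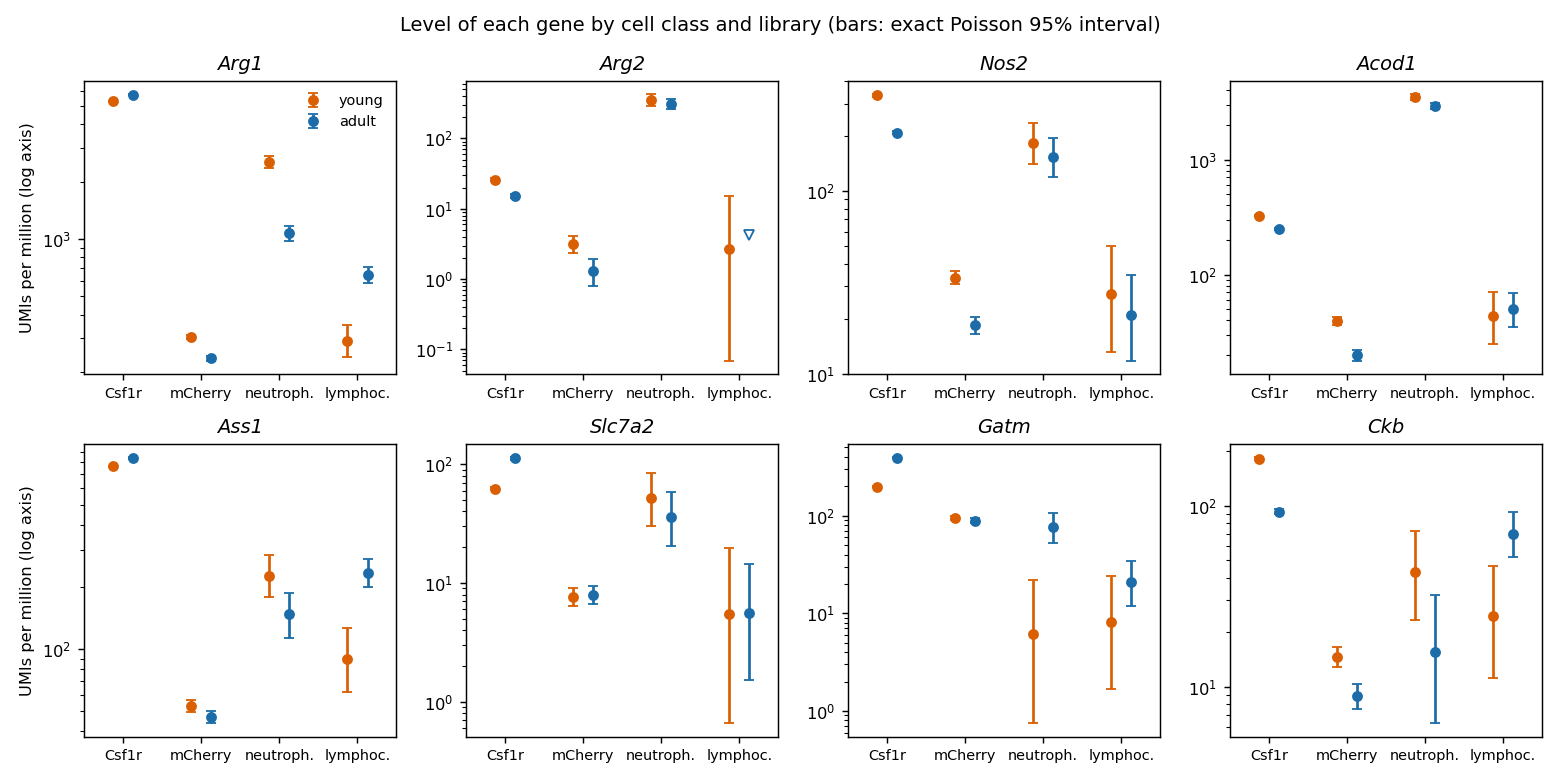
Level of each gene (CPM, log axis) in Csf1r cells, mCherry-rich cells, neutrophils and lymphocytes, young in orange and adult in blue, with exact Poisson 95% intervals; the open triangle stands at the level of 3 counts where none was found. Acod1 and Arg2 peak in neutrophils, the others in Csf1r cells, and Gatm is the member nearest to its Csf1r level in mCherry-rich cells.

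Gatm was the member that the mCherry-rich cells held at the highest share of its Csf1r level. It stood at 95.3 CPM (90.8 to 100.1) in the young and 89.2 CPM (84.7 to 93.8) in the adult class, 48.1% and 22.7% of the Csf1r level, and was detected in 82.5% and 78.4% of cells at medians of 32751 and 31334 UMIs. The other 7 members stood at 4.12% to 12.3% of their Csf1r levels. Csf1r itself was at 9.79% and 6.66% there, and Lyz2, another listed macrophage marker, at 8.61% and 5.24%. In the mCherry-rich cells without a Csf1r or C1q UMI (59 young and 83 adult cells), Gatm stood at 105 CPM (84.0 to 130) and 79.9 CPM (65.5 to 96.5). Arg1 was at 1.497% and 0.874% of its Csf1r level in those cells, and Nos2 at 1.88% and 2.15%. The ratio of young to adult Gatm was 1.07 (0.997 to 1.15) in mCherry-rich cells and 0.504 (0.492 to 0.515) in Csf1r cells; the difference between the classes was not tested.

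Ckb was the member nearest to its Csf1r level in adult lymphocytes, at 70.0 CPM (51.9 to 92.2) or 75.6% of it, and 71.4 CPM (41.6 to 114) in the 54 cells without Csf1r or C1q UMIs. Young lymphocytes held 24.5 CPM (11.2 to 46.5), on 9 UMIs. Over all lymphocytes of either library, no other member exceeded 27.8% of its Csf1r level. Arg1 stood there at 5.51% and 11.3%, with 210 of the 462 adult UMIs in 1 cell. In the 18 young lymphocytes without Csf1r or C1q UMIs, Acod1 was at 40.6% on 13 UMIs, 9 of them in 1 cell. Arg2 was at 39.1% there, on 1 UMI.

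Arg1 and Nos2 were also counted together outside the Csf1r class, in cells thinned to 1000 UMIs. Both genes were present in 22.9% of young and 16.0% of adult Csf1r cells. In the mCherry-rich class 1.18% and 0.844% of cells held both, in neutrophils 4.55% and 2.34%, and in lymphocytes 1.96% (1 cell) and 0 of 121 cells, which allows up to 2.48% of cells with UMIs of both (3 counts of the total). The lymphocytes held Arg1 in 27.5% and 24.8% of cells and Nos2 in 3.92% and 1.65% at that depth. This is read here as background, though the part of mixed cells in it was not tested. The Csf1r class held Arg1 in 86.5% and 83.1% and Nos2 in 25.2% and 17.6%.

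Within the Csf1r class the members took different places. The 10% of cells highest in each of 10 short gene lists were compared with the remaining cells of the same library. Such a set is a range of a score and not a cell type, and 1 cell can lie in several ranges. Arg1, Nos2 and Slc7a2 were together highest in the range of the hypoxia genes Slc2a1, Ldha, Pgk1, Bnip3 and Vegfa. There Arg1 was 1.89-fold higher in young and 1.88-fold in adult, Nos2 2.20-fold and 2.88-fold, and Slc7a2 2.06-fold and 1.88-fold. Ckb was at 0.454 and 0.480 of its level in the other cells. In that range 88.6% of young and 76.6% of adult cells held Nos2. The score of 400 young and 415 adult cells lay within 10% of the limit.

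Arg2 led elsewhere. It was 3.31-fold and 3.10-fold higher in the range of Slpi and Il1a, a protease inhibitor and an interleukin 1 cytokine, and 3.24-fold and 3.16-fold higher in that of the heme and lipid genes Hmox1, Fabp5 and Plin2. In the latter Gatm was at 0.290 and 0.356 of its level in the other cells. Nos2 was 1.88-fold and 2.43-fold higher in the range of Slpi and Il1a. Acod1 was highest in 3 ranges: the monocyte genes Ly6c2, Plac8 and Ms4a4c (2.08-fold and 2.44-fold), the interferon-induced genes of the Ifit family and Rsad2 (2.09-fold and 2.53-fold), and Slpi and Il1a (1.96-fold and 2.41-fold). In the monocyte range Arg1 was at 0.671 and 0.747 of its level elsewhere. Ckb was highest in the range of the C1q genes and Ms4a7 (2.21-fold and 2.27-fold), where Nos2 was at 0.710 and 0.492 and Arg2 at 0.387 and 0.344.

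**Figure D5:**
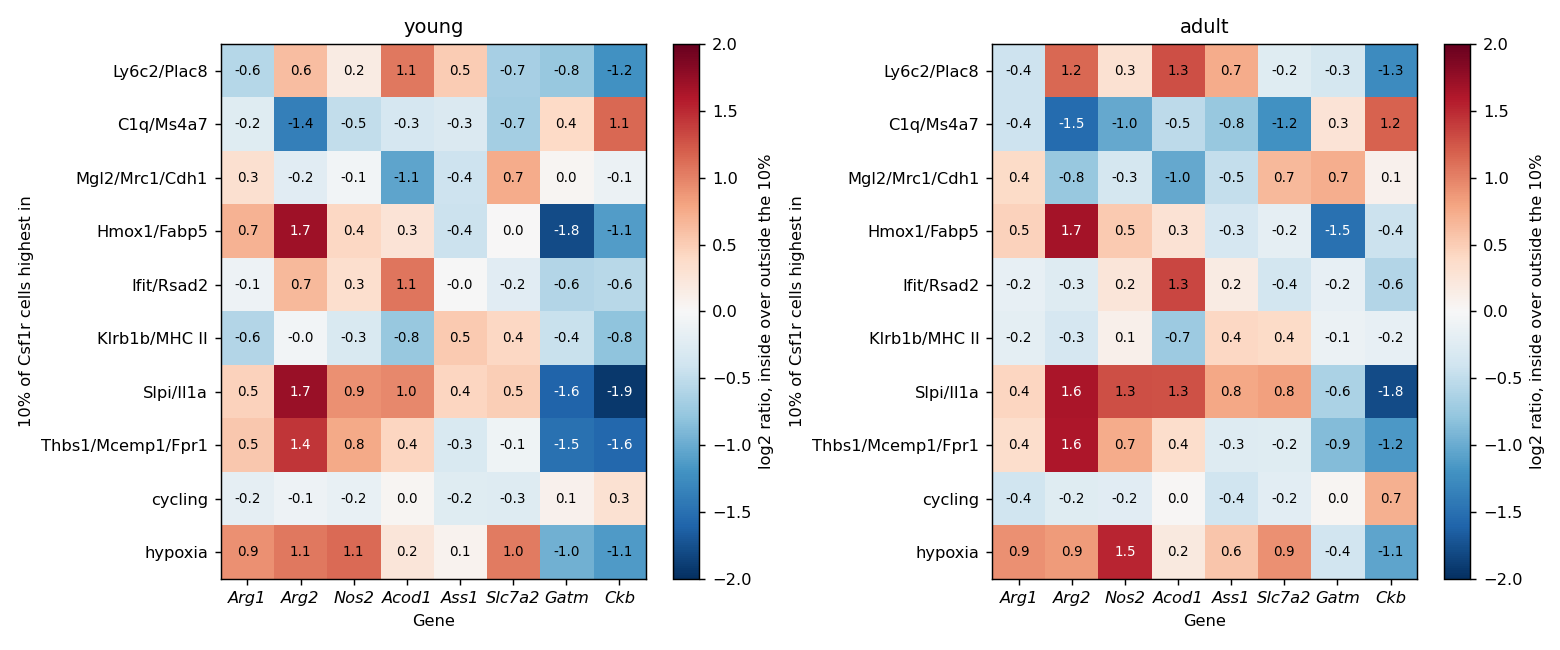
Log2 ratio of each gene's level (colour and number) inside over outside the 10% of Csf1r cells highest in each list (y axis), young left and adult right. Arg1, Nos2 and Slc7a2 are warm in the hypoxia row, and so is Arg2, which is warmer in the Slpi, Hmox1 and Thbs1 rows. Nos2 is also warm in the Slpi row. Acod1 is warm in the Ly6c2, Ifit and Slpi rows, and Ckb in the C1q row. The odds ratio of Arg1 with Nos2 was above 1 in 19 of the 20 ranges of both libraries. It was 0.846 in the young range of Hmox1, Fabp5 and Plin2. Each rests on few cells with Nos2 and no Arg1, between 1 and 34 in a range.

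The ratio of young to adult was taken again within each of the 10 ranges. Gatm was past 1.5-fold with an interval off 1, higher in adult, in all 10 (1.84-fold to 3.73-fold), and Slc7a2 in 9 (ratios of adult to young from 1.27 to 2.38). Ckb passed the same limit, higher in young, in 8 ranges (ratios from 1.28 to 2.04), Arg2 in 7 (1.24 to 3.001) and Nos2 in 5 (1.24 to 2.27). The ratios of these 3 were above 1 in the remaining ranges, and the interval included 1 in 1 of them for Arg2. Arg1 (0.705 to 1.06), Ass1 (0.678 to 1.24) and Acod1 (1.05 to 1.48) were past the limit in none, and for each of them the interval included 1 in 2 ranges. The ranges hold unequal shares of the libraries; that of Mgl2, Mrc1 and Cdh1 took 2.12% of young and 20.01% of adult Csf1r cells.

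Over the 28 pairs of members, Pearson's r of thinned log counts in Csf1r cells was positive in both libraries for 14 pairs and negative in both for 10. Arg1 with Nos2 was the highest in both (0.20 and 0.25). Nos2 with Acod1 had 0.17 and 0.14, and Nos2 with Slc7a2 0.11 and 0.23. Gatm and Ckb were positive with each other (0.18 and 0.05) and negative with Nos2, Arg2 and Acod1 in both libraries. Arg1 with Ass1 changed sign, from -0.09 in young to 0.09 in adult.

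The genes whose pattern was most like each member's were ranked over 5520 young and 4358 adult Csf1r cells and 7695 genes, by the lower of the 2 libraries' r of log counts per 10000 UMIs. Arg1 and Nos2 shared the first, Grina, a gene for a membrane protein (r of 0.40 and 0.46 with Arg1, 0.39 and 0.44 with Nos2). Next for Arg1 came Adam8 and the glycolysis genes Pkm, Gapdh and Eno1, and for Nos2 Prdx6, Bnip3, Parp10 and Upp1. Nos2 was at rank 16 for Arg1, and Arg1 at rank 7 for Nos2. For Slc7a2 the first was Nos2 itself (0.22 and 0.34), before Ptgs2 and Inhba. Arg2 was most like Slpi, Fth1 and Sod2, and Acod1 most like Ifi205, Slfn2 and Clec4e. Ass1 was most like Prdx5 (0.39 and 0.50), Clec5a and Tspo. Gatm was most like Naaa, H2-DMa and Rplp1, and Ckb most like Slamf9, Cd72 and Ly86. These are weak correlations over cells of 1 library each and describe no shared control.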

How the data were processed

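The members and gene lists were chosen with earlier results of these data known. The authors deposited raw counts of UMIs for each feature and barcode of both libraries (10x Genomics v2 chemistry, per the labels). Cell Ranger 3.0.2 and mm10 come from the submitters' processing notes. The annotation, strand setting and barcode filter were not given in the sources used here. Every barcode held at least 500 UMIs, and 99.6% of features matched GENCODE M21 by identifier.

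Counts were read in Python 3.11.15 (scipy 1.17.1, numpy 2.4.6, pandas 2.3.3), filtered by genes and mitochondrial UMIs (468 young and 505 adult barcodes left out), summed by class and scaled to CPM with exact Poisson intervals. Shares have exact Clopper-Pearson intervals, ratios conditional binomial ones. No p-value was computed, since cells of 1 library are not replicates. Doublets were not called and should be taken as present. Thinning drew UMIs without replacement (seed 0). Ratio calls and thinned co-occurrence were tested on simulated data.

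Named genes are the 8 members, the 5 (Arg1, Nos2) or 3 genes most like each, and of 7 pathway lists up to 4 genes with the largest ratios past 1.5-fold. Ifngr1 and genes that name gates or ranges were added after their values were seen.

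Alternatives changed cell weights, centring, depth, gates, filters, detection and fold limits. Leaving out shared barcodes, or cells with Csf1r or C1q UMIs, was chosen after seeing the data.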

Additional observations from a re-analysis of the deposited data

Results flagged for a closer look

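Some members ran one way between the libraries in Csf1r cells and the other way in another class, with both counting intervals excluding 1. Arg1 had a ratio of young to adult of 0.922 in Csf1r cells, but of 1.3 in mCherry-rich cells and 2.38 in neutrophils. In the young neutrophils 512 of the 828 Arg1 UMIs lay in 1 cell, and without cells holding Csf1r or C1q UMIs the neutrophil ratio was 1.02 (0.608 to 1.69). Ass1 had a ratio of 0.911 in Csf1r cells, 1.14 in mCherry-rich cells and 1.54 in neutrophils. In the young neutrophils 26 of the 74 Ass1 UMIs lay in 1 cell, and without cells holding Csf1r or C1q UMIs the neutrophil ratio was 1.19 (0.298 to 4.35) on 5 and 7 UMIs. Ckb had a ratio of 1.96 in Csf1r cells and 0.35 in lymphocytes, the latter on 9 young and 50 adult UMIs. These differences between classes were not tested, since each age is 1 library. In mCherry-rich cells the macrophage markers stood at 1217 summed CPM in young and 710 CPM in adult, and Lyz2 at 601 and 303 CPM. The part of macrophage RNA in the Arg1 and Ass1 ratios of that class was not tested.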

How the results depend on the processing

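Of 56 comparisons of a main result with an alternative, 53 stayed within the spread or the limit set for them and 3 moved. With both genes detected at 2 or more UMIs, observed over product of Arg1 and Nos2 in adult was 1.11. At a 2-fold limit, 0 members were higher and 0 lower in young Csf1r cells. Of the other comparisons, on ratios of single members and the odds ratio of Arg1 with Nos2, 107 stayed, 50 moved and 1 called value changed direction. That was Slc7a2 in young Nos2-only over Arg1-only cells, at 0.947 in thinned cells. The adult ratio of the same gene, not past the limit, was 1.06 where each cell weighed the same. Values that moved by over 1.5 times numbered 19. Among them were the young odds ratio of Arg1 and Nos2 (4.13 without thinning) and the neutrophil over Csf1r ratio of Arg1. With the lowest class subtracted as free RNA, the adult value of the latter was 0. The adult neutrophils were themselves the class with the fewest Arg1 UMIs per cell (2.46, against 3.67 in lymphocytes). That 0 was therefore fixed by the setting and says nothing about free RNA. In young, the same subtraction took the neutrophil over Csf1r ratio of Nos2 from 0.550 to 0.357. The others of the 19 were ratios of Arg1 and Nos2 in neutrophils and of Nos2-only cells. In adult thinned cells the Nos2-only comparison still held 2 lower members, but Slc7a2 took the place of Ckb. No paired analysis was possible because each age is 1 library. The Nos2-only ratios rest on few cells and UMIs. For moved values the cause was not tested.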
